A study of Rattus norvegicus with 29 samples.

Results

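Sham-operated rats given paired feeding were compared with sham-operated rats that had no paired feeding, in the duodenum, across 14557 genes. The samples were taken by their titles, with no use of their values, but earlier results of these data were known when they were chosen. They make up 12 of the 29 arrays of the study, with 6 arrays of pair-fed sham and 6 of sham, and every array holds RNA from 1 rat. The rats were males of the Long-Evans strain, wild type, 8 to 10 weeks old and kept under specific-pathogen-free conditions. Both groups had the sham operation for vertical sleeve gastrectomy (VSG): under isoflurane the abdomen was opened and blunt forceps were pressed on the stomach along the line where VSG divides it. Both groups, like the operated ones, were switched from solid to liquid food on the day before the operation. The remaining arrays come from VSG (6), Roux-en-Y gastric bypass (RYGB, 6) and the sham operation for RYGB (5). The labels call the arrays of a group biological replicates. The labels name no feeding regime for the plain sham rats, which are taken here as freely fed. Not given in the sources used here were the amount the pair-fed rats ate, for how long, to which rats they were matched, whether any were fasted before sampling, and the time from the operation to the sampling of tissue.

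Pair feeding gives a control animal only the amount of food that an operated animal eats, so that the effect of eating less can be set apart from the effect of the operation. In a fasted animal, the small intestine is known to switch on fatty acid oxidation and ketone synthesis through the nuclear receptor PPAR alpha, and to lower lipid and sterol synthesis, which insulin and the SREBP factors drive. Crypt growth slows and the villi shrink in long fasts, while peptide transport is kept up, and meal times set the phase of the intestinal clock. A rat that eats a restricted ration often takes it in 1 bout and then goes without food, so its state at sampling also depends on the time since that bout.

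Arrays of both groups carried the transcripts of intestinal epithelium at high levels. On the log2 scale of the deposited values, where the median of all rows lay between 2.80 and 2.97, Apoa4, Fabp1, Fabp2, Rbp2, Alpi and Cdh17 lay above 10 on all 12 arrays, Vil1 above 9 and the intestinal transcription factor Cdx2 between 7.90 and 8.35. The duodenal factor Pdx1 was not analysed here. Fabp6, the bile acid-binding protein of the ileum that should be low in duodenum, stood apart on 2 sham arrays. It was at 11.1 in sham replicate 4 and 10.9 in sham replicate 6, between 4.72 and 5.44 in the other 4 sham arrays, and between 5.13 and 7.17 in the pair-fed arrays. The same 2 sham arrays held Tmigd1, an adhesion protein of the epithelium, at 5.98 and 5.89, against 1.64 or less in the other sham arrays and 1.73 or less in the pair-fed arrays. They also held Ly6al at 7.95 and 7.72, against at most 3.64 in the other sham arrays and 4.69 in the pair-fed arrays, and the hormone gene Pyy at 4.70 and 4.12, against at most 2.92 and 3.63. Tmigd1, Ly6al and Pyy were singled out after their values were seen. The bile acid transporter Slc10a2, also typical of the ileum, was highest on the same 2 among the sham arrays, at 5.99 and 5.45 against 2.52 to 4.65 on the other 4, but it did not set them apart from the pair-fed arrays, where its lowest and highest values were 4.16 and 6.71. Its difference, 0.68, ran from 0.29 to 1.49 over 23 alternative settings. Of the 23 arrays outside the sham group, 1 also held Fabp6 above 9, and it was not a pair-fed array.

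A second difference among arrays was in transcripts of the exocrine pancreas, a gland attached to the duodenum. The mean of its 22 measured genes, among them the digestive enzymes Prss1 and Pnlip, lay between 2.80 and 8.19 on pair-fed arrays and between 2.86 and 7.35 on sham arrays. It was above the mean of all 29 arrays, 5.26, in sham replicates 1 and 4 and in pair-fed replicates 1 and 6. Results below are given with and without these arrays where that changes what they show.

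**Figure D1:**
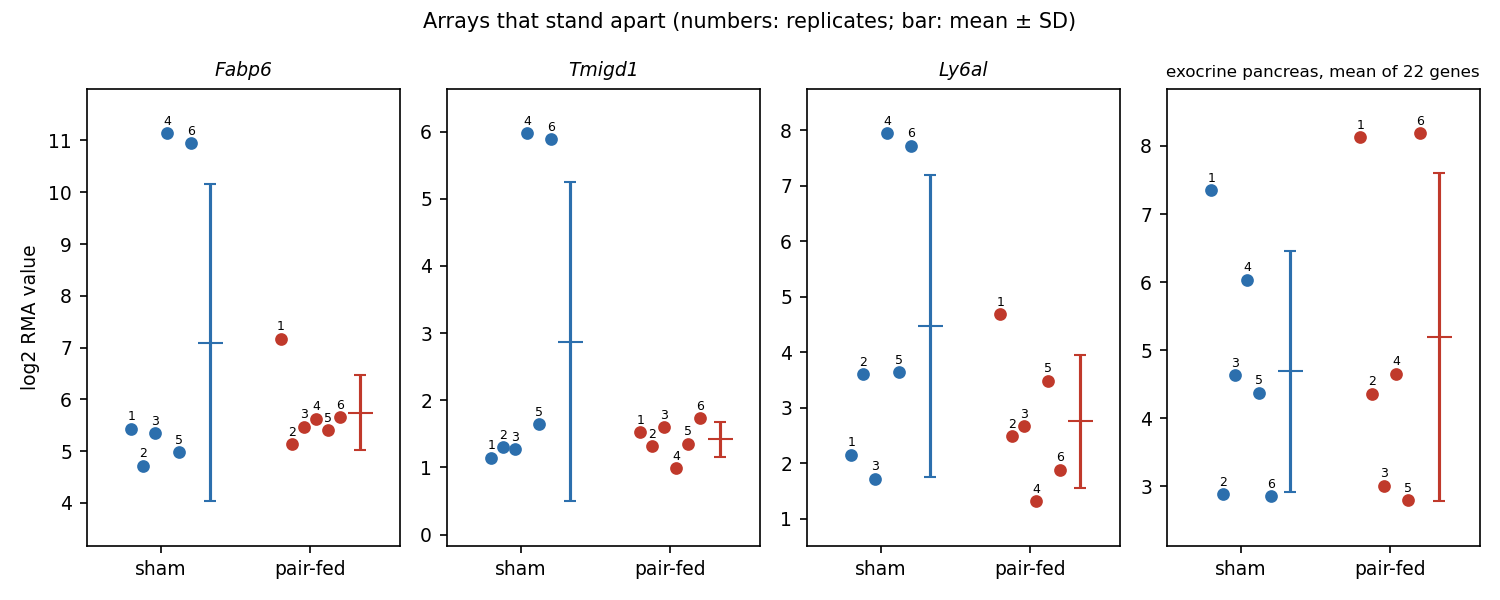
Log2 RMA values of Fabp6, Tmigd1 and Ly6al and the mean log2 value of 22 exocrine pancreas genes on each array, with replicate numbers, for 6 sham (blue) and 6 pair-fed sham arrays (red); bars are mean ± SD. Sham replicates 4 and 6 lie far above every other array in the first 3 panels, and sham replicates 1 and 4 and pair-fed replicates 1 and 6 are the highest in the last panel.

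No gene passed the test between pair-fed sham and sham. In the linear model fitted with limma to all 29 arrays, 0 of 14557 genes (0%) had a Benjamini-Hochberg adjusted p under 0.05, and the smallest adjusted p was 0.498. Without adjustment, 811 genes (5.57%) had a p under 0.05, where 5% would be there if no gene differed. Of these, 453 (3.11% of all genes) were higher with pair feeding and 358 (2.46%) were lower. This split was not stable: it was 376 higher and 378 lower after centring each array on its median, 397 and 415 after quantile normalization, and 369 and 379 without pair-fed replicate 3. Without sham replicate 3 the split was 374 higher and 367 lower. The p-values were spread almost evenly between 0 and 1. All 6 pair-fed arrays lay above all 6 sham arrays for 24 genes (0.165%) and below them for 14 genes (0.0962%). Of the 1245 olfactory and vomeronasal receptor genes, a class with hardly any known role in this tissue, 61 (4.90%) had an unadjusted p under 0.05. Among these 61, 41 were higher with pair feeding and 20 lower. All these p-values set a group difference against the spread between rats within groups. That spread was pooled over all 5 groups of the model and moderated across genes by limma. The number of arrays limits the precision.

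**Figure D2:**
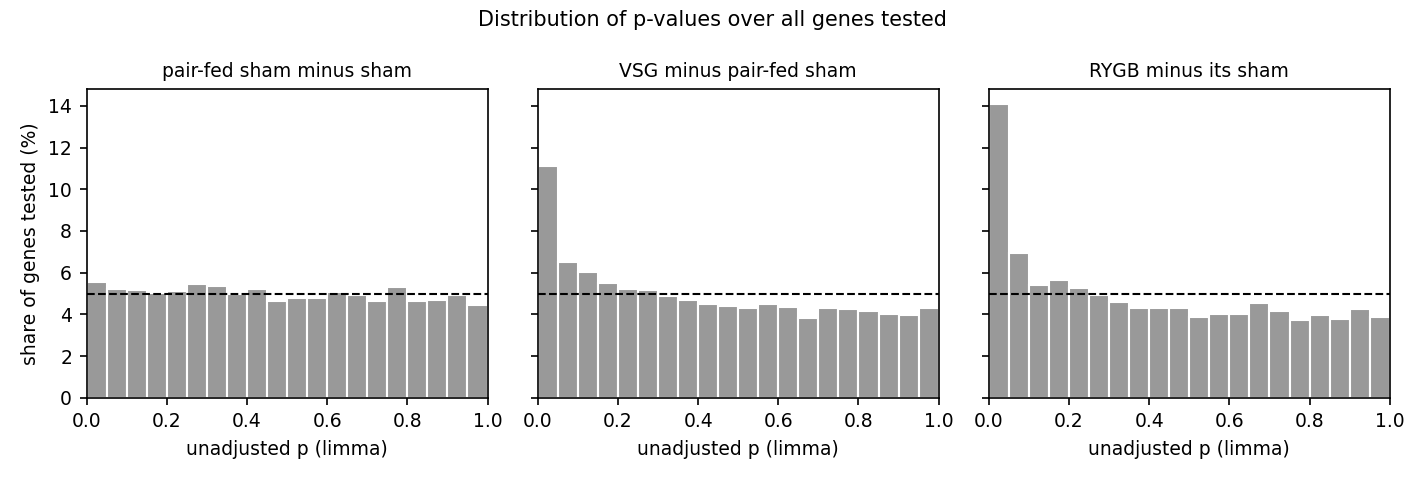
Share of the genes tested (%) in bins of unadjusted p (limma) for pair-fed sham minus sham, VSG minus pair-fed sham and RYGB minus its own sham; the dashed line marks the 5% that each bin holds when no gene differs. The first bin holds 5.57%, 11.1% and 14.1% of the genes.

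The same model called genes in the other comparisons. It called 26 genes (0.179%) between VSG and the same sham arrays, 22 higher and 4 lower after VSG, and 74 genes (0.508%) between VSG and the pair-fed arrays, 38 higher and 36 lower after VSG. These 2 comparisons share arrays with the one described here. Between RYGB and its own sham, which share no array with it, 385 genes (2.64%) were called, 184 higher and 201 lower. The unadjusted shares were 8.99%, 11.1% and 14.1% in the 3 comparisons. The difference between the RYGB effect and the pair-feeding effect, tested as a contrast of 4 separate groups, was called for 66 genes (0.453%).

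The intervals, set gene by gene without adjustment for the number tested, limit the size of what was not detected. The SE of the log2 difference had a median of 0.145, and the 95% interval reached a median of 0.30 to either side, which is 1.23-fold. For 12131 genes (83.3%) the whole interval lay within a 1.5-fold difference, and for 14376 (98.8%) within a 2-fold difference. The 5th and 95th percentiles of the fitted differences were -0.27 and 0.28, and the median was 0.01. Only Scd and Ccl20 had an interval wholly beyond 1.5-fold. At least a 1.5-fold fitted difference was seen for 49 genes higher and 34 lower, and at least a 2-fold one for 3 higher and 4 lower. By comparison, 39 genes reached 2-fold between VSG and sham and 132 between RYGB and its sham.

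The 3 genes fitted at over 2-fold higher were Ccl20, Scd and Hist2h2aa2, and the 4 over 2-fold lower were Ly6al, Tmigd1, Fabp6 and Reg3b. Of the lower ones, 3 are the genes that were high on sham replicates 4 and 6. The difference was -1.71 for Ly6al, -1.45 for Tmigd1 and -1.35 for Fabp6 (limma adjusted p = 0.911, 0.861 and 0.939). Without those 2 arrays, an alternative chosen after seeing the data, the differences became -0.03, 0.08 and 0.62. With them left out the count of called genes was again 0, with 856 genes at an unadjusted p under 0.05.

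Scd encodes the rat stearoyl-CoA desaturase that makes monounsaturated fatty acids, and is switched on by insulin and carbohydrate feeding in the liver. It ranged from 4.04 to 5.47 with a median of 4.87 in pair-fed sham, and from 3.27 to 4.05 with a median of 3.60 in sham. In 5 of 6 pair-fed arrays it was above the highest sham array, and the sixth lay just under that array. The difference was 1.11 (95% interval 0.61 to 1.62), a 2.16-fold higher level, with an unadjusted p of 1.03e-04 and a limma adjusted p of 0.498. In RYGB against its sham, in other animals, Scd differed by 1.05 (adjusted p = 0.0211).

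Ccl20, the chemokine of the epithelium over lymphoid follicles that draws CCR6-bearing cells, had the highest fitted difference of all genes tested. It ranged from 5.32 to 8.29 with a median of 6.38 in pair-fed sham and from 3.97 to 6.27 with a median of 4.72 in sham. The groups overlapped: 4 of 6 pair-fed arrays were above the highest sham array. Sham replicates 4 and 6, the arrays set apart by Fabp6, held the highest sham values, 6.27 and 5.80. The other sham arrays lay between 3.97 and 4.85, below every pair-fed array. The difference was 1.52 (0.70 to 2.34), with a limma adjusted p of 0.537. Leaving out 1 array at a time moved it between 1.16 and 1.77. Without sham replicates 4 and 6 together, an alternative chosen after seeing the data, it was 2.04.

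Hist2h2aa2, a core histone H2A gene, ranged from 6.62 to 7.96 in pair-fed sham and from 5.57 to 6.86 in sham. The difference was 1.07 (0.55 to 1.58, limma adjusted p = 0.507). The 40 measured histone genes had a median difference of 0.01, with 2 of them at an unadjusted p under 0.05, both higher. Core histone copies are nearly identical in sequence, so a probe set may read several of them.

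Among the other 9 of the 12 genes with the smallest p in the higher direction, 4 showed no overlap between the groups. Hs1bp3, a binding partner of the cortical protein HS1, ranged from 4.40 to 4.91 in pair-fed sham and from 4.06 to 4.40 in sham (difference 0.50, 0.27 to 0.73). Rassf7, a RAS-association domain protein, ranged from 5.56 to 5.92 and from 5.00 to 5.51 (difference 0.52, 0.28 to 0.77). Ifngr2, the signalling chain of the interferon gamma receptor, ranged from 8.51 to 8.90 and from 7.97 to 8.44 (difference 0.45, 0.23 to 0.67). Zc3h12a, the ribonuclease Regnase-1 that degrades cytokine transcripts, ranged from 5.34 to 6.38 and from 4.98 to 5.28 (difference 0.56, 0.29 to 0.84). The gaps were narrow, and for Hs1bp3 the lowest pair-fed array and the highest sham array were nearly level. Their limma adjusted p-values were 0.498, 0.507, 0.507 and 0.507. The remaining 5 were the small GTPase gene Rnd2 (0.74), the germ cell RNA-binding gene Ybx2 (0.46), Leng9 (0.42), the glutaredoxin gene Glrx (0.42) and the pacemaker channel gene Hcn3 (0.62).

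Of the 12 genes with the smallest p in the lower direction, 5 showed no overlap. RT1-N2, a non-classical MHC class I gene, ranged from 4.48 to 5.30 in pair-fed sham and from 5.44 to 5.83 in sham (difference -0.61, -0.94 to -0.28). Fxyd6, a regulator of the sodium pump, ranged from 5.39 to 6.23 and from 6.35 to 7.21 (difference -0.68, -1.07 to -0.30). Slc41a1, a magnesium transporter, ranged from 2.63 to 3.40 and from 3.52 to 4.02 (difference -0.75, -1.19 to -0.31). All 3 had a limma adjusted p of 0.537, and for each the gap between the groups was smaller than the range within either group. Serpina3j (-0.70) and Adgrb3 (-0.48) also showed no overlap, but both had a mean under the lowest array median, as did Cldn24 (-0.48), Dkkl1 (-0.38) and, among the higher genes, Ybx2. Values this low are near what an array reads without a transcript.

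Hmox1, the heme oxygenase that releases iron from heme and is part of the antioxidant response, ranged from 5.70 to 6.91 with a median of 6.60 in pair-fed sham and from 6.62 to 8.35 with a median of 7.15 in sham. The groups overlapped, with 3 of 6 pair-fed arrays below the lowest sham array. The difference was -0.91 (-1.41 to -0.40, limma adjusted p = 0.537). Of the 23 measured genes of the NRF2 and glutathione list, Hmox1 alone had an unadjusted p under 0.05, and the median of the list was 0.01. The others among these 12 were the adenylyl cyclase gene Adcy1 (-0.57), the nuclear pore gene Nup54 (-0.45), Ndrg2 (-0.43) and the transcription factor gene Osr1 (-0.52).

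**Figure D3:**
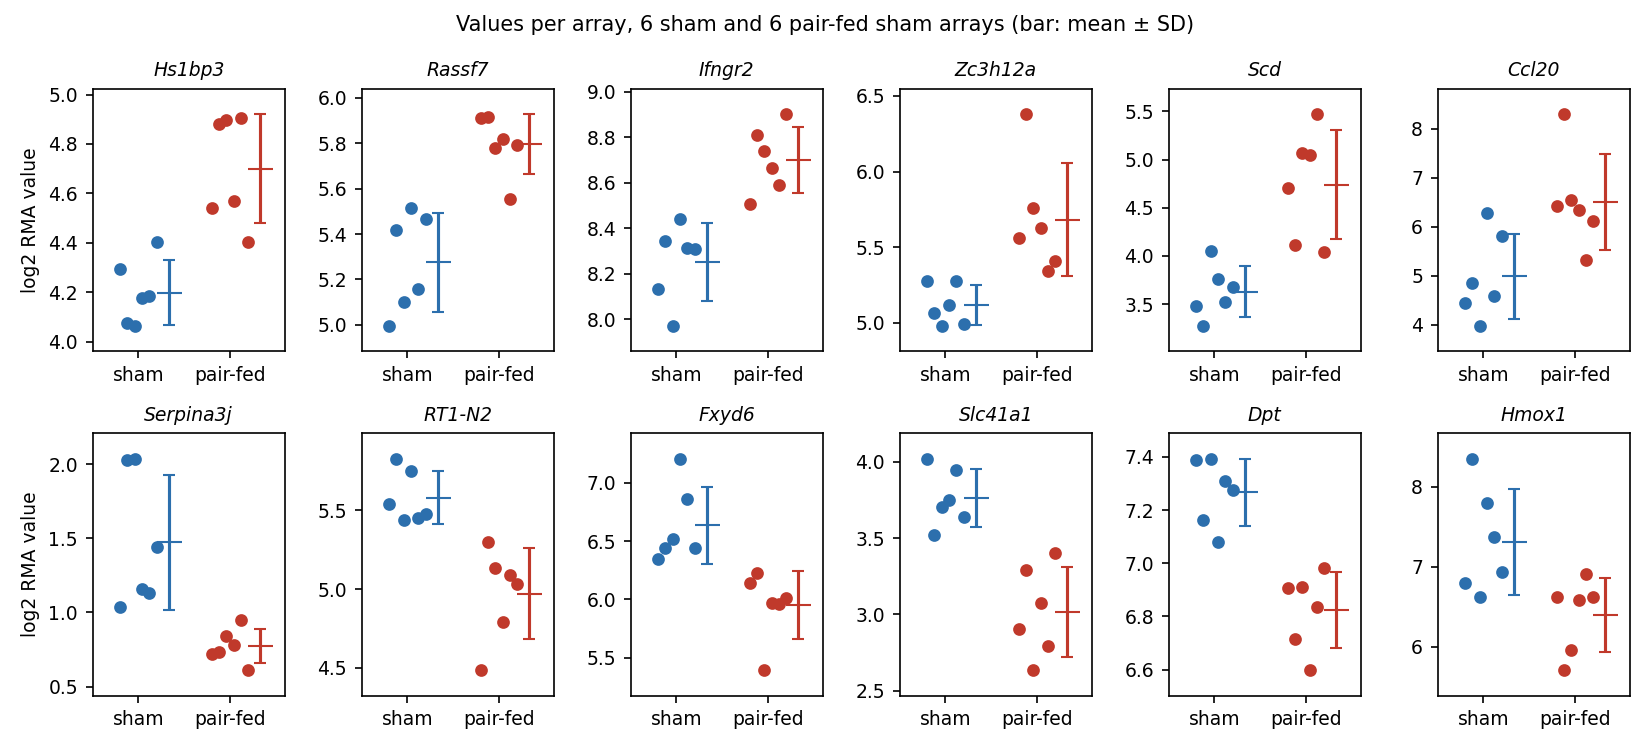
Log2 RMA values per array of 12 genes among those with the smallest p or with no overlap between groups, in 6 sham (blue) and 6 pair-fed sham arrays (red), with mean ± SD; each panel has its own axis, which does not start at 0. The upper row shows genes higher with pair feeding, with Scd and Ccl20 overlapping; the lower row shows genes lower with pair feeding, of which Hmox1 overlaps.

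Across 55 gene lists and 46 gene families, chosen with earlier results of these data known, no member was called. Of the 935 genes in at least 1 list, 33 were higher and 28 lower at an unadjusted p under 0.05, together 6.52% against 5.57% of all genes, and 20 lists had no such member. Members of a list are described below by these unadjusted counts. None of the differences between pair-fed sham and sham passed the test, since no limma adjusted p was under 0.498. Counts of members above 0 are to be read against all genes tested, of which 7734 were above 0 and 6821 below.

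The fasting genes of lipid oxidation showed no shared direction. Of 35 measured genes of fatty acid oxidation and ketogenesis, 17 had a difference above 0 and 18 below, the median was 0, and 4 were higher and 2 lower at an unadjusted p under 0.05. Cpt1a, the gate of mitochondrial fatty acid import and a PPAR alpha target, ranged from 7.46 to 8.10 in pair-fed sham (median 7.90) and from 8.01 to 8.52 in sham (median 8.24). With 4 of 6 pair-fed arrays below the lowest sham array, the groups overlapped at the edge, and the pair-fed arrays were on the lower side. The difference was -0.40 (-0.64 to -0.16, limma adjusted p = 0.549). Hadha, a subunit of the trifunctional protein of beta-oxidation, differed by -0.18, while the peroxisomal thiolase gene Acaa1a differed by 0.22 and Cyp4a8, an omega-hydroxylase close to the array background, by 0.49.

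Of the 22 measured PPAR targets 7 had a difference above 0 and 15 below, with a median of -0.05, and 12 to 15 were below 0 over 23 alternative settings. Pdk4, the kinase that shuts pyruvate dehydrogenase in fasting, ranged from 8.00 to 9.29 in pair-fed sham and from 8.18 to 9.19 in sham, with full overlap and a difference of -0.13 (-0.60 to 0.33). Angptl4, a lipase inhibitor that rises in fasted tissue, differed by 0.21 (-0.20 to 0.62), and the lipid droplet coat gene Plin2 by -0.06 (-0.30 to 0.18). In RYGB against its sham the last 2 fell by 2.63 and fell by 1.54, and the RYGB effect differed from the pair-feeding effect for both (-2.84 ± 0.29 SE, limma adjusted p = 9.00e-07, and -1.48 ± 0.17 SE, adjusted p = 5.70e-06). In the PPAR list 2 genes were higher and 3 lower at an unadjusted p under 0.05. Creb3l3, a hepatic and intestinal fasting factor, was among the lower ones (-0.22), as was the lipid droplet gene Plin5 (-0.44), and the sterol sensor LXR alpha (Nr1h3) was among the higher ones (0.24).

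In fatty acid and triglyceride synthesis, 14 of 17 measured genes had a difference above 0, with a median of 0.14, against a median of 0.01 over all genes. Scd and the lipase gene Pnpla3 (0.34, 0.04 to 0.65) had an unadjusted p under 0.05, and none of the list was lower at that level. Scd2, a second desaturase, differed by 0.35 (-0.01 to 0.71), the glycolytic gene Pklr by 0.18, and Srebf1, the factor that drives the list, by -0.14. The mean of the list ranged from 7.08 to 7.48 on pair-fed arrays and from 7.0 to 7.17 on sham arrays. Over 23 alternative settings the number of members above 0 stayed between 13 and 15 and the median between 0.09 and 0.22.

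In cholesterol synthesis, 14 of 18 genes had a difference above 0, with a median of 0.10. Pmvk, the phosphomevalonate kinase, had an unadjusted p of 0.0013: it ranged from 5.74 to 6.57 in pair-fed sham and from 5.29 to 6.04 in sham, with 5 of 6 pair-fed arrays above the highest sham array (difference 0.55, 0.24 to 0.87, limma adjusted p = 0.537). Insig2, which holds the SREBP complex in the endoplasmic reticulum, showed no overlap, at 6.53 to 6.84 against 6.36 to 6.52, yet its interval reached 0 (difference 0.21, 0 to 0.43). Fdps differed by 0.26 and Sc5d by 0.18. Sqle, which makes squalene epoxide, differed by -0.02. The count of members above 0 ran from 9 to 18 over the settings, so the count depends on the arrays and settings used.

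Among the genes that take up and export dietary fat the median difference was -0.02. Apoa4, the apolipoprotein of chylomicrons and 1 of the most abundant transcripts of the enterocyte, ranged from 11.82 to 11.99 in pair-fed sham and from 11.83 to 12.04 in sham, with a difference of -0.01 (-0.15 to 0.14). These values lay near the top of the range, where the highest mean of any gene was 12.18. Whether the arrays could still register a difference at that level was not tested. Of 21 measured genes of lipid absorption, 1 was higher and 1 lower at an unadjusted p under 0.05. The higher one was Abcg5, which pairs with Abcg8 to pump sterols out of the cell, at 0.40 (0.10 to 0.70), and the lower one was Dgat2, which makes triglyceride, at -0.38 (-0.71 to -0.04).

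Genes of digestion and nutrient transport gave no member at the unadjusted level. None of 11 brush border enzymes and none of 23 sugar, amino acid and peptide transporters had an unadjusted p under 0.05, and the whole interval lay within 1.5-fold for 10 and 20 of them. The glucose transporter Slc5a1 ranged from 9.74 to 10.32 in pair-fed sham and from 9.70 to 10.31 in sham (difference -0.03, -0.25 to 0.19). The peptide transporter Slc15a1 ranged from 9.43 to 9.95 and from 9.18 to 9.94 (difference 0.04, -0.25 to 0.34). The fructose transporter Slc2a5 differed by 0.16 (-0.32 to 0.64), where RYGB against its sham gave -1.36, and these effects differed from each other (-1.53 ± 0.34 SE, limma adjusted p = 0.0311). Lactase (Lct) varied widely among pair-fed arrays, from 7.80 to 9.66, against 8.92 to 9.46 in sham, so that its difference of -0.41 had an interval from -1.18 to 0.37. Sis was not analysed here.

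Intestinal glucose production and the hormone responses of fasting showed no shared direction. Pck1, the first enzyme of gluconeogenesis, ranged from 5.47 to 8.60 with a median of 7.25 in pair-fed sham and from 7.21 to 8.34 with a median of 7.77 in sham. The pair-fed arrays spread to both sides of the sham arrays, and the difference of -0.65 had an interval from -1.41 to 0.12. Without pair-fed replicate 2 the Pck1 difference was -0.31, and without the 4 pancreas-rich arrays -1.07. In the glucocorticoid list, Fkbp5, a co-chaperone of the glucocorticoid receptor that the hormone induces, ranged from 6.07 to 7.16 in pair-fed sham and from 4.72 to 6.75 in sham (difference 0.65, 0.11 to 1.18, limma adjusted p = 0.820). Without sham replicate 2 the Fkbp5 difference was 0.39, and without sham replicates 4 and 6 it was 1.01. The list as a whole had 8 of 20 members above 0 and 1 member at an unadjusted p under 0.05 in each direction, the lower one being Cebpb (-0.28). In the insulin and FoxO list 13 of 24 were above 0, Ccng2 was higher (0.33) and the receptor gene Igf1r lower (-0.32) at that level, and Igfbp1 differed by 0.03.

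The clock genes gave wide intervals. Per1 differed by -0.15 (-0.56 to 0.25), Per2 by 0.26 (-0.15 to 0.67), Dbp by -0.35 (-0.87 to 0.16) and Bmal1 by 0.19 (-0.32 to 0.70). Bmal1, the positive limb of the clock, was between 4.49 and 5.00 on 5 sham arrays and at 6.35 on sham replicate 2. Wee1, a cell cycle kinase under clock control, was the 1 of 12 clock genes with an unadjusted p under 0.05 (0.33, 0.08 to 0.58). Sham replicate 2 also held the lowest sham values of Per2 (6.15), Dbp (6.66) and Wee1 (4.87). Without that array the differences were 0.47 for Bmal1, 0.105 for Per2, -0.52 for Dbp and 0.23 for Wee1. Nr1d1 was not analysed here, and times of day at sampling were not given in the labels.

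Genes of growth and renewal lay near 0. None of 26 cell cycle and none of 28 DNA replication genes had an unadjusted p under 0.05, with medians of 0.01 and -0.03, and all 26 cell cycle genes had their interval within 1.5-fold. Of 12 stem cell and Wnt target genes 9 were below 0, with Ephb2, the receptor that sorts crypt cells, at -0.32 (-0.61 to -0.03). Of 22 ribosome biogenesis genes 18 were below 0, with a median of -0.08 and 3 lower at an unadjusted p under 0.05. These were Bop1 (-0.29), Rrp9 (-0.43) and Ltv1 (-0.23), all factors that process ribosomal RNA or assemble ribosomal particles. Without the 4 pancreas-rich arrays, which leaves fewer arrays in each group, they were at -0.21, -0.33 and -0.15, none with a p under 0.05, and the median was -0.05. Odc1, which starts polyamine synthesis, ranged from 9.03 to 9.38 in pair-fed sham and from 9.28 to 9.43 in sham (difference -0.18, -0.39 to 0.03). In the amino acid stress list Ddit3 was higher (0.34) and Stc2 (-0.49) and Cebpb lower at an unadjusted p under 0.05, with 9 of 22 members above 0.

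No gut hormone gene passed the test. Gip, the incretin of the upper intestine, ranged from 8.98 to 9.60 in pair-fed sham and from 8.96 to 9.48 in sham (difference 0.08, -0.18 to 0.34). Ghrl, the precursor of ghrelin, ranged from 7.55 to 8.17 and from 7.46 to 7.74 (difference 0.16, -0.11 to 0.43). Gcg, the precursor of GLP-1 and glucagon, had the widest interval of the 3 (0.14, -0.43 to 0.71), and its highest value, 6.80, was on a pair-fed array. Without the 4 pancreas-rich arrays its difference was -0.24. Of 18 hormone genes 9 were above 0, and only the guanylin gene Guca2a had an unadjusted p under 0.05 (0.22, 0 to 0.45). Without pair-fed replicate 1, its highest array, the Guca2a difference was 0.12, and without the 4 pancreas-rich arrays 0.10.

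Iron absorption is the subject of the study's title, and no iron gene passed the test between the feeding groups. The ferric reductase gene Cybrd1 ranged from 8.99 to 11.2 in pair-fed sham and from 9.47 to 10.8 in sham, with full overlap and a difference of 0.11 (-0.46 to 0.68). VSG arrays lay higher, from 11.5 to 12.1, and VSG differed from sham by 1.63 and from pair-fed sham by 1.52 (limma adjusted p = 0.0091 and 0.0099). The exporter gene Slc40a1 differed by 0.08 (-0.22 to 0.38). The transferrin receptor gene Tfrc ranged from 7.60 to 8.19 in pair-fed sham and from 7.83 to 8.40 in sham, a difference of -0.21 (-0.44 to 0.03). VSG was above pair-fed sham for Tfrc by 0.83 (adjusted p = 5.31e-04) and above sham by 0.63 (adjusted p = 0.0129), and the RYGB effect exceeded the pair-feeding effect by 1.36 ± 0.17 SE (adjusted p = 1.51e-05). Epas1, which encodes HIF-2 alpha, differed by 0.20 (0.02 to 0.37, unadjusted p = 0.0304), and with Hmox1 it was the only 1 of 23 iron genes at that level. None of 17 hypoxia response genes had an unadjusted p under 0.05. Slc11a2 was not analysed here.

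Of the 25 measured genes in a panel of feeding, clock, hormone, iron and transport genes, 13 were above 0 and 12 below. Scd, Cpt1a and Fkbp5 were the 3 with an unadjusted p under 0.05, and none was called. The whole interval lay within 1.5-fold for 12 panel genes and within 2-fold for 21. In RYGB against its sham 11 of the same 25 were called, in VSG against sham 2, and in VSG against pair-fed sham 3. The last were Cybrd1, Tfrc and Cpt1a. For Cpt1a the VSG arrays ranged from 8.47 to 8.73: VSG was 0.74 above pair-fed sham (limma adjusted p = 0.0024) and 0.34 above sham (adjusted p = 0.340). Ifngr2 was also called between VSG and pair-fed sham (-0.58, adjusted p = 0.0099), with -0.13 between VSG and sham. The pair-fed arrays enter the differences between VSG and pair-fed sham, and the sham arrays those between VSG and sham, so neither is separate evidence of a feeding effect.

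**Figure D4:**
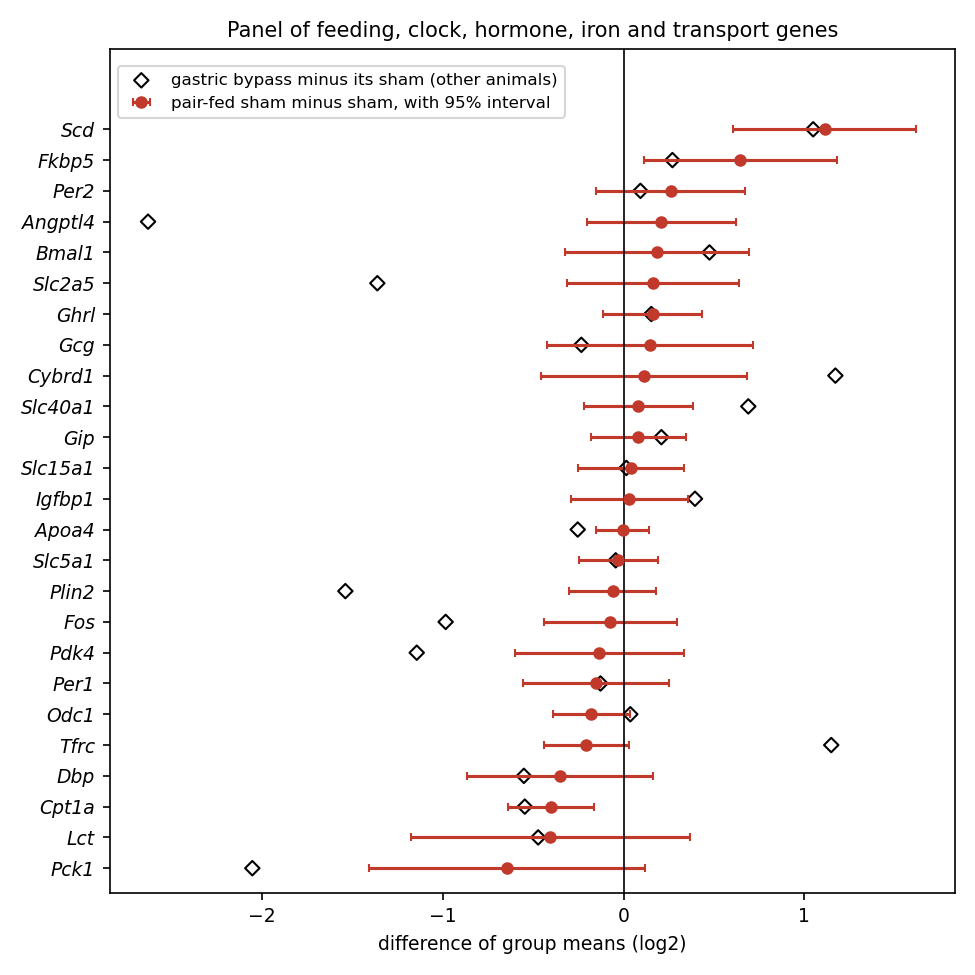
Difference between pair-fed sham and sham (log2) with its 95% interval (red) for 25 panel genes, beside the difference between RYGB and its own sham, from other animals (open diamonds). Most red points lie between -0.4 and 0.3, while Angptl4, Pck1, Plin2 and Slc2a5 after RYGB lie below -1.3 and Cybrd1 and Tfrc above 1.1.

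In the xenobiotic list 18 of 27 genes were above 0, with a median of 0.08, and 4 were higher and 0 lower at an unadjusted p under 0.05. Cyp2d4, a drug-oxidizing cytochrome, ranged from 7.99 to 8.51 in pair-fed sham and from 7.33 to 8.15 in sham, with 5 of 6 pair-fed arrays above the highest sham array (difference 0.44, 0.18 to 0.70, limma adjusted p = 0.549). Cyp3a9, another cytochrome, differed by 0.29, and the sulfotransferase genes Sult1b1 and Sult1a1 by 0.35 and 0.45. Sham replicate 3 held the lowest sham values of Cyp2d4 (7.33), Sult1b1 (6.03) and Sult1a1 (3.91), but not of Cyp3a9. With 1 array left out at a time, the differences of Sult1b1 and Sult1a1 fell as low as 0.225 and 0.282. Nr1i3, which encodes the drug-sensing receptor CAR and was picked after its values were seen, showed no overlap and differed by 0.47 (adjusted p = 0.537). Over the settings 2 to 6 members of the list were higher at an unadjusted p under 0.05 and 0 to 2 lower.

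Mucosal defence genes went both ways. Reg3b, a secreted lectin against bacteria, ranged from 5.25 to 8.18 in pair-fed sham (median 6.36) and from 6.76 to 8.46 in sham (median 7.57), with overlap, and differed by -1.09 (-2.08 to -0.10, limma adjusted p = 0.867). In the same list of 21 Paneth cell and antimicrobial genes, Nupr1, a stress-induced gene, was at 0.42 and the oxidase subunit gene Cyba at 0.26, each with an unadjusted p under 0.05. Of 29 chemokines, Ccl20 and Ccl17 were higher and Cxcl6 lower at that level, and 16 of 29 were below 0. Ccl17, which draws CCR4-bearing T cells, showed no overlap, at 4.00 to 4.50 in pair-fed sham and 3.05 to 3.93 in sham (difference 0.64, 0.09 to 1.18, limma adjusted p = 0.855).

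All 9 measured MHC class II genes were above 0, with a median of 0.20, and 2 of them, RT1-DMb (0.43) and RT1-DMa (0.27), had an unadjusted p under 0.05. These encode the chains of the DM protein, which loads peptides onto class II molecules. The list mean ranged from 6.78 to 7.41 on pair-fed arrays and from 6.80 to 7.12 on sham arrays, so the groups overlapped, and the highest value was on pair-fed replicate 1, a pancreas-rich array. After a further quantile normalization 8 of 9 were above 0, and without the 4 pancreas-rich arrays 7 of 9 were. On the 8 arrays left RT1-DMb was at 0.40 and RT1-DMa at 0.22, and no gene of the list had an unadjusted p under 0.05. Lists of T cells, B cells and macrophages had medians of -0.06, -0.04 and 0.04, with 1 gene in the 3 lists, a macrophage gene that was lower, at that level. In bulk tissue a different number of cells of a type and a different amount of RNA per cell cannot be told apart.

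All 10 measured smooth muscle genes were below 0, with a median of -0.23, and 3 had an unadjusted p under 0.05. These were Myl9 (-0.35, -0.57 to -0.12), the regulatory myosin light chain, Synpo2 (-0.36, -0.62 to -0.10) and Csrp1 (-0.35, -0.67 to -0.04), which bind the actin cytoskeleton. The list mean lay between 8.05 and 8.35 on pair-fed arrays and between 8.16 and 8.78 on sham arrays, where sham replicate 4, also high in Fabp6 and in pancreas transcripts, was the highest. Without sham replicates 4 and 6 the median was -0.17, with 10 of 10 still below 0 and 2 at an unadjusted p under 0.05. Without the 4 pancreas-rich arrays it was -0.19, with 9 of 10 below 0 and 1 at that level. Fibroblast and matrix genes were below 0 in 19 of 28 cases, with a median of -0.07. Dpt, a matrix protein, showed no overlap, at 6.60 to 6.98 in pair-fed sham and 7.08 to 7.39 in sham (difference -0.44, -0.72 to -0.17, limma adjusted p = 0.620), and the proteoglycan gene Dcn (-0.38) and the receptor gene Pdgfrb (-0.33) also had an unadjusted p under 0.05. How much muscle and connective tissue each piece of duodenum held was not measured, and the part of tissue content in these differences was not tested.

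The 22 exocrine pancreas genes were all above 0, with a median of 0.49, and none had an unadjusted p under 0.05. Single arrays differed far more than the groups. Without the 4 pancreas-rich arrays 12 of 22 were above 0 and the median was 0.03. Those arrays were picked by the mean of the same 22 genes, so for this list leaving them out is no separate check.

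**Figure D5:**
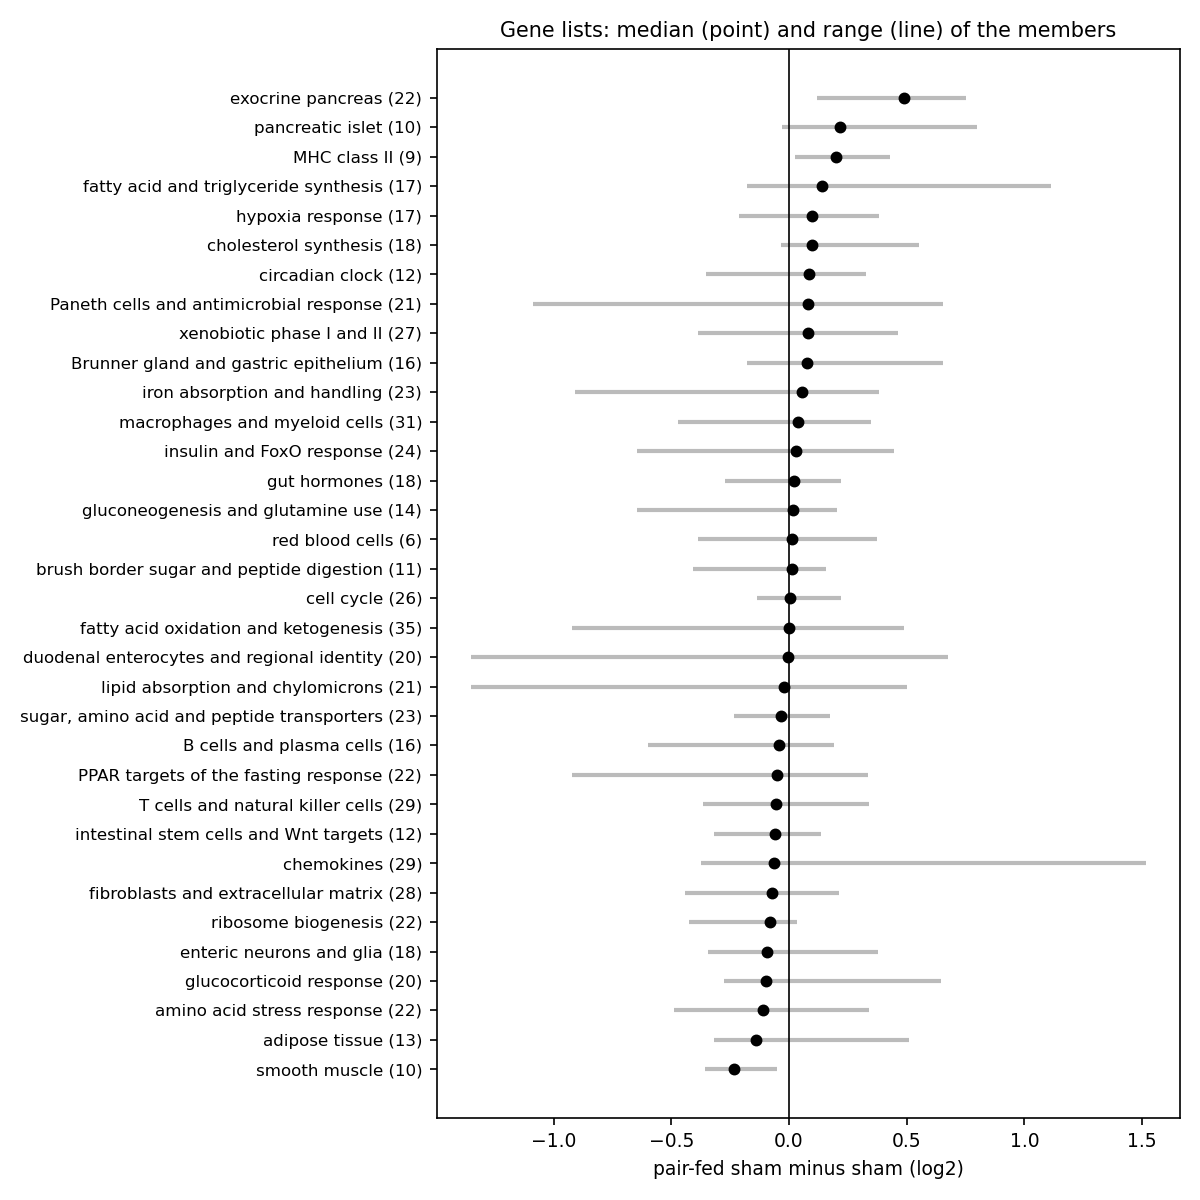
Median (point) and range (line) of the difference between pair-fed sham and sham (log2) over the measured members, whose number is in brackets, of 34 gene lists and families. Most medians lie between -0.15 and 0.15, with exocrine pancreas at 0.49 and smooth muscle at -0.23 at the ends, and single genes such as Fabp6 at -1.35 and Ccl20 at 1.52 set the ends of some lines.

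Families defined by gene symbol gave the same picture, with no called member in any of 46. Complex I of the respiratory chain had 35 of 44 genes above 0 with a median of 0.05, and ATP synthase 16 of 20 with a median of 0.05, but 1 and 0 of them had an unadjusted p under 0.05. Over 23 settings 26 to 37 complex I genes and 14 to 17 ATP synthase genes were above 0. Of 55 cytochrome P450 genes 4 were higher and 1 lower at that level, of 250 solute carriers 7 and 2, of 35 ABC transporters 1 and 4, and of 206 Zfp zinc finger genes 5 and 5. The ribosomal proteins of the large subunit had 44 of 94 above 0 and 1 at an unadjusted p under 0.05. The 31 collagens had a median of -0.05, none at that level, and all 31 had their interval within 1.5-fold.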

How the data were processed

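The deposited log2 values, with a value for each probe set on each array, came from RMA in Affymetrix Expression Console 1.3.0.187 (per the submitters' processing notes). As commonly run, RMA normalizes all arrays together. No coordinates are printed: the chip definition and genome build were not given in the sources used here. No column of values was left out as belonging to no sample. Of 36685 rows, 14824 had 1 gene symbol in the platform annotation, 829 had several, and 21032 had none in the annotation used here. Entrez numbers served to update symbols from the GRCr8 gene table (154 numbers not found), and each gene took its row with the highest mean over 29 arrays (234 genes had over 1 row). No intensity filter was set. Arrays give no read depth. No array copied another (highest correlation 0.977).

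Limma 3.58.1 in R 4.3.3 (lmFit, eBayes) fitted 5 group means to 29 arrays. P-values are two-sided and adjusted by Benjamini-Hochberg over 14557 genes, with calls at an adjusted p under 0.05. Intervals are limma's 95% intervals. The procedure was tested on simulated data. The samples, lists, families and panel were chosen with earlier results of these data known. Named genes are the 12 with the smallest p in each direction, the panel, up to 4 members of each described list by smallest p, and tissue markers; unnamed loci and olfactory, vomeronasal and antigen receptor genes were passed over among the smallest p. Others were chosen after their values were seen: Ly6al, Tmigd1, Pyy, Nr1i3, Ldah, St6galnac1, Napepld, Tex19.1, and Srebf1, Sqle, Prss1 and Pnlip as list members. Replicate numbers were not used to pair the arrays in the main fit.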

Additional observations from a re-analysis of the deposited data

Results flagged for a closer look

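In 19 of 300 groups of 6 arrays (150 genes named, each in pair-fed sham and in sham) the highest or lowest array lay far from the other 5 by Dixon's test at the 95% level; chance alone gives about 1 in 20. Among sham arrays, the lowest value stood apart for Slc40a1 (9.29, replicate 3), Treh (8.73, replicate 3), Plin2 (10.01, replicate 1), Odc1 (9.28, replicate 1), Abcg5 (5.37, replicate 2) and Cdx2 (8.02, replicate 2). The highest sham value stood apart for Bmal1 (6.35, replicate 2), Naalad2 (1.95, replicate 2), Cdca7 (6.02, replicate 3), RT1-Ba (7.51, replicate 4) and Alpi (11.4, replicate 1). Among pair-fed arrays, the lowest value stood apart for Fxyd6 (5.39, replicate 3), Glud1 (9.71, replicate 3), Pdgfrb (5.00, replicate 3), Epas1 (8.83, replicate 1) and Ldah (1.82, replicate 2). The highest stood apart for Fabp6 (7.17, replicate 1), Nupr1 (7.59, replicate 1) and Il1r2 (2.26, replicate 1).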

How the results depend on the processing

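No gene was called under any of 24 alternatives: other samples in the fit, a trended and robust prior, other gene sets or rows, 2 other scalings, array weights, pancreas content as a covariate, leaving out arrays, and the replicate block. The smallest adjusted p ran from 0.142, without pair-fed replicate 6, to 0.892. The count at an unadjusted p under 0.05, 811, ran from 729 to 890 when 1 array was left out and was 2004 over all 36685 rows and 585 without the 4853 genes lowest by mean. Genes higher with pair feeding were 55.9% of it, and 49.9% and 48.9% after centring arrays and after quantile normalization. With the replicate block 779 genes were at that level and 0 were called. Deviations were correlated above 0.1 in 1 of 6 same-numbered pairs, and 1 of 6 pair-fed arrays correlated best with its own number. Whether equal numbers mark matched rats was not given, and these correlations cannot decide it, since matched rats need not vary together.

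Among 150 genes, 23 changed sign in 60 of 3438 values, none of them called. The alternative without sham replicates 4 and 6, chosen after seeing the data, gave -0.011 for Gcg, -0.029 for Bmal1, 0.015 for Fos, 0.039 for Slc5a1, -0.004 for Igfbp1, 0.081 for Tmigd1, 0.380 for Pyy, -0.001 for Cdh17, 0.005 for Cdx2, -0.019 for Rbp2 and 0.620 for Fabp6. Without the 4 pancreas-rich arrays the values were -0.238 for Gcg, -0.009 for Gip, 0.059 for Per1, 0.022 for Fos, 0.040 for Slc5a1, -0.069 for Rbpjl, -0.122 for Cuzd1, 0.037 for Pyy, -0.073 for St6galnac1, -0.027 for Cdh17, 0.014 for Cdx2 and -0.100 for Rbp2. Quantile normalization gave -0.006 for Slc15a1 and -0.003 for Rbp2, array weights 0.003 for Apoa4, -0.003 for Igfbp1, 0 for Cdx2 and -0.003 for Rbp2, and the pancreas covariate -0.001 for Rbp2. With 1 array left out at a time, differences ran from -0.050 to 0.391 for Cybrd1, -0.009 to 0.201 for Slc40a1, -0.145 to 0.351 for Gcg, -0.023 to 0.333 for Angptl4, -0.103 to 0.015 for Plin2, -0.173 to 0.035 for Fos, -0.058 to 0.103 for Slc15a1, -0.105 to 0.034 for Slc5a1, -0.027 to 0.016 for Apoa4, -0.035 to 0.089 for Igfbp1, -0.025 to 0.102 for Mme, -0.384 to 0.085 for Pyy, -0.024 to 0.062 for Cdh17, -0.043 to 0.046 for Cdx2 and -0.045 to 0.049 for Rbp2. The cause was not tested. The median 95% interval reached 1.23-fold to either side, without adjustment for the number of genes tested. Smaller differences could not be told from 0 in a typical gene with 6 arrays a group. Larger ones could also go uncalled, as did Scd at 2.16-fold (limma adjusted p = 0.498).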

Other observations

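A few genes, picked after their values were seen, were high on some arrays and much lower on others of the same group. St6galnac1, a sialyltransferase of mucin synthesis, was between 7.19 and 7.53 on 4 pair-fed arrays and at 1.61 and 1.94 on replicates 2 and 5, and between 7.34 and 7.58 on 3 sham arrays and 1.73 and 2.14 on the other 3. Napepld, which makes the lipids called N-acylethanolamines, was between 5.99 and 6.86 on 4 sham and 2 pair-fed arrays. It was between 3.16 and 4.32 on the other 2 sham and 4 pair-fed arrays. Tex19.1, a germ cell gene, was above 6 on sham replicates 2 and 4 and pair-fed replicate 1 (6.13, 6.24 and 6.23) and at 4.13 or less on the other 9. Ldah, a lipid droplet hydrolase, was at 1.82 on pair-fed replicate 2 and between 5.61 and 6.76 on the other 11 arrays. None passed the limma test between the groups (adjusted p from 0.944 to 0.977).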
